A study of Mus musculus with 12 samples.

Results

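Gene expression in mouse kidney at E15.5 was set against that at E13.5, days of embryonic development between which the nephron divides into segments. The comparison used 2 of the 12 arrays of the series, chosen by their titles: 1 array of fresh E15.5 kidney and 1 array of fresh E13.5 kidney. Both kidneys came from wild-type ICR mice and were taken whole with the ureter removed, and their total RNA was labelled with Cy3 and hybridised to single-colour Agilent arrays. The labels do not say how many embryos or litters went into each specimen. The other arrays hold fresh kidney at E11.5, E17.5 and P0, the day of birth (1 array each), cultured E11.5 kidney (1 array), and organoids built from kidney progenitors of embryonic stem cell origin and E11.5 stromal progenitors, before and after culture (3 arrays each). The study set neighbouring stages side by side to find genes whose expression goes up with stage.

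With 1 array per stage no error could be estimated and nothing was tested, so every value below is a single measurement. A gene's level is the log2 of its processed signal minus the log2 signal at the 75th percentile of its array, so that a level of 0 is the 75th percentile. A difference is the E15.5 level minus the E13.5 level, and a gene was counted as higher or lower where it differed at least 2-fold, a difference of 1 on the log2 scale. Acadm, an enzyme of fatty acid oxidation, was just inside this limit at 1.0, and Clca3a1, a stromal gene, just outside it at 0.97. Levels of different genes come from different probes and are not compared with each other. Where a signal was not well above background on 1 of the arrays, the fold is a lower bound, written as at least N-fold. For it the dim array was set at its own value or at the lowest level of any probe well above background there, whichever was higher, and those lowest levels were -5.55 at E15.5 and -5.09 at E13.5. Folds and bounds hold for this processed signal alone. With normexp, another background correction, the differences of Spp2 and Kcnj1 were 4.57 and 4.08, in place of 7.22 and 6.5. For genes dim at E13.5 the normexp difference could lie below the bound, as for Slc17a1 (3.05 against 6.12) and Col4a3 (0.18 against 0.93). Of 258 named genes, 147 moved with normexp by less than the spread between replicate organoid arrays.

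As background, nephrons form from a cap of progenitor cells around the tips of the branching ureteric bud. These cells turn into epithelial vesicles, then into S-shaped bodies, and their segments become the podocytes of the filter, the proximal tubule, the loop of Henle and the distal tubule. The proximal tubule takes back most of the filtered solutes, proteins and water, the loop builds the salt gradient of the medulla, and the collecting duct, which derives from the ureteric bud, sets the final salt, water and acid content of urine. New nephrons keep being added at the outer rim of the kidney during all these stages, so that progenitors and older segments are present side by side.

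Of 17645 named genes well above background on at least 1 of the 2 arrays, 1500 (8.5%) were at least 2-fold higher in E15.5 kidney and 310 (1.76%) at least 2-fold lower. With normexp background correction, which adds a fixed offset to every signal, the counts were 415 higher and 59 lower, and with each array scaled to its median 1167 and 719. With the 75th percentile 82.9% of the genes past 2-fold were higher at E15.5, and this share was 61.9% with median scaling, which moved the median difference of all genes to -0.40 from -0.12. With dim signals at their bounds, 1125 genes (6.38%) were higher and 284 (1.61%) lower. Among the 16206 genes well above background on both arrays, 4.94% were higher and 1.2% lower. Counts in the gene lists below are to be read beside the 8.5% and 1.76% of all genes. At least 8-fold differences were seen for 257 genes that were higher (1.46%) and 57 that were lower (0.323%). A further view is detection: 1291 genes (7.32%) were well above background at E15.5 and not at E13.5, and 148 (0.839%) the reverse. For comparison, pairs of replicate organoid arrays, another tissue, differed at least 2-fold either way in 2.77 to 4.01% of genes, with an SD of 0.429 to 0.534 on the log2 scale. Replicate spots of 1 probe had a median SD of 0.0632 at E15.5 and 0.0612 at E13.5. Well above background were 63.2% of probes at E15.5 and 56.1% at E13.5, no spot was saturated, and both arrays lay on the same slide.

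The differences drifted with signal. Among 8 bins of genes of equal size, ordered by mean level, the median difference was 0.39 in the dimmest and -0.28 in the brightest. Of the 1500 higher genes, 652 were in the dimmest bin and 16 in the brightest, and of the 310 lower genes, 138 and 9 were. A small negative difference of a bright gene is therefore close to that of other genes of its signal. The part of this drift in each result below was not tested, and medians of the main lists with a curve over signal subtracted are given with the other processing choices.

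**Figure D1:**
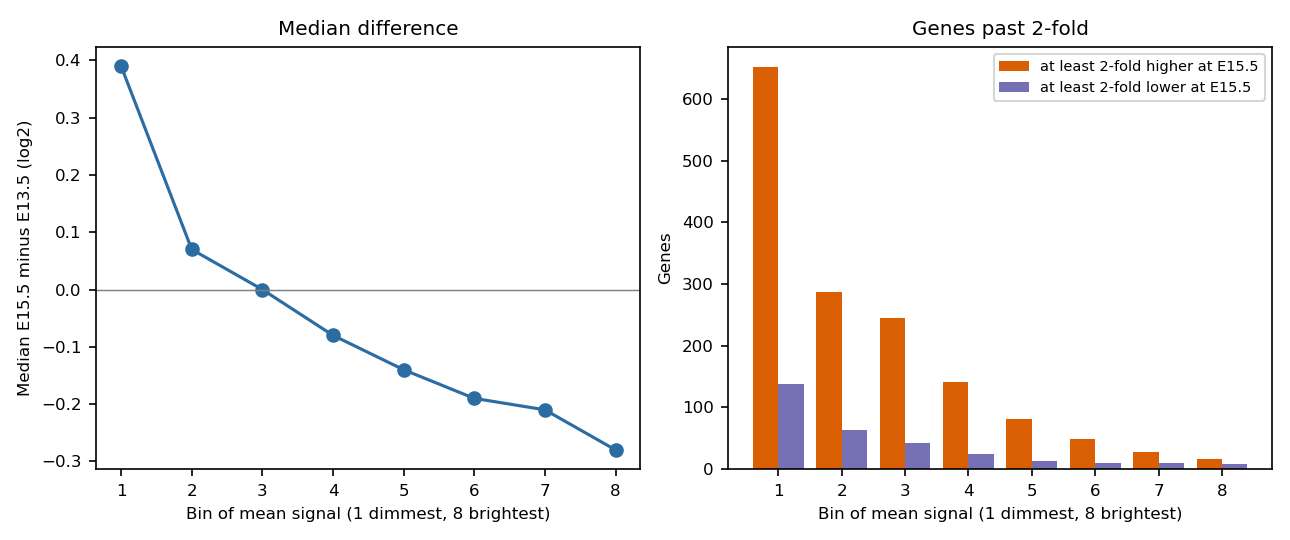
Drift of the comparison with signal. The left panel plots the median E15.5 minus E13.5 difference (log2) of genes in 8 bins of mean level, and the right panel the number of genes at least 2-fold higher (orange) and lower (purple) in E15.5 kidney in each bin. The median goes down from 0.39 in bin 1 to -0.28 in bin 8, and most genes past 2-fold are dim.

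Markers of kidney were present on both arrays. The nephron factors Pax8 (2.16 at E15.5 and 1.89 at E13.5) and Wt1 (5.37 and 5.66), the progenitor factor Six2 (4.98 and 5.71) and the epithelial cadherin Cdh16 (6.18 and 5.02) were all well above background. Pax2, which marks both kidney lineages, was measured on a dim probe, at -2.08 in E15.5 kidney and -2.05 in E13.5 kidney. The sex-linked genes differed: Xist, made from the inactive X chromosome of females, was 4.07-fold higher at E15.5, while the Y-linked Ddx3y, Eif2s3y and Uty were 3.23-fold, 3.19-fold and 2.91-fold lower. The labels give no sex for either specimen, and the part of sex in other differences was not tested. In whole kidney, fewer cells of a type and less RNA per cell cannot be told apart.

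**Figure D2:**
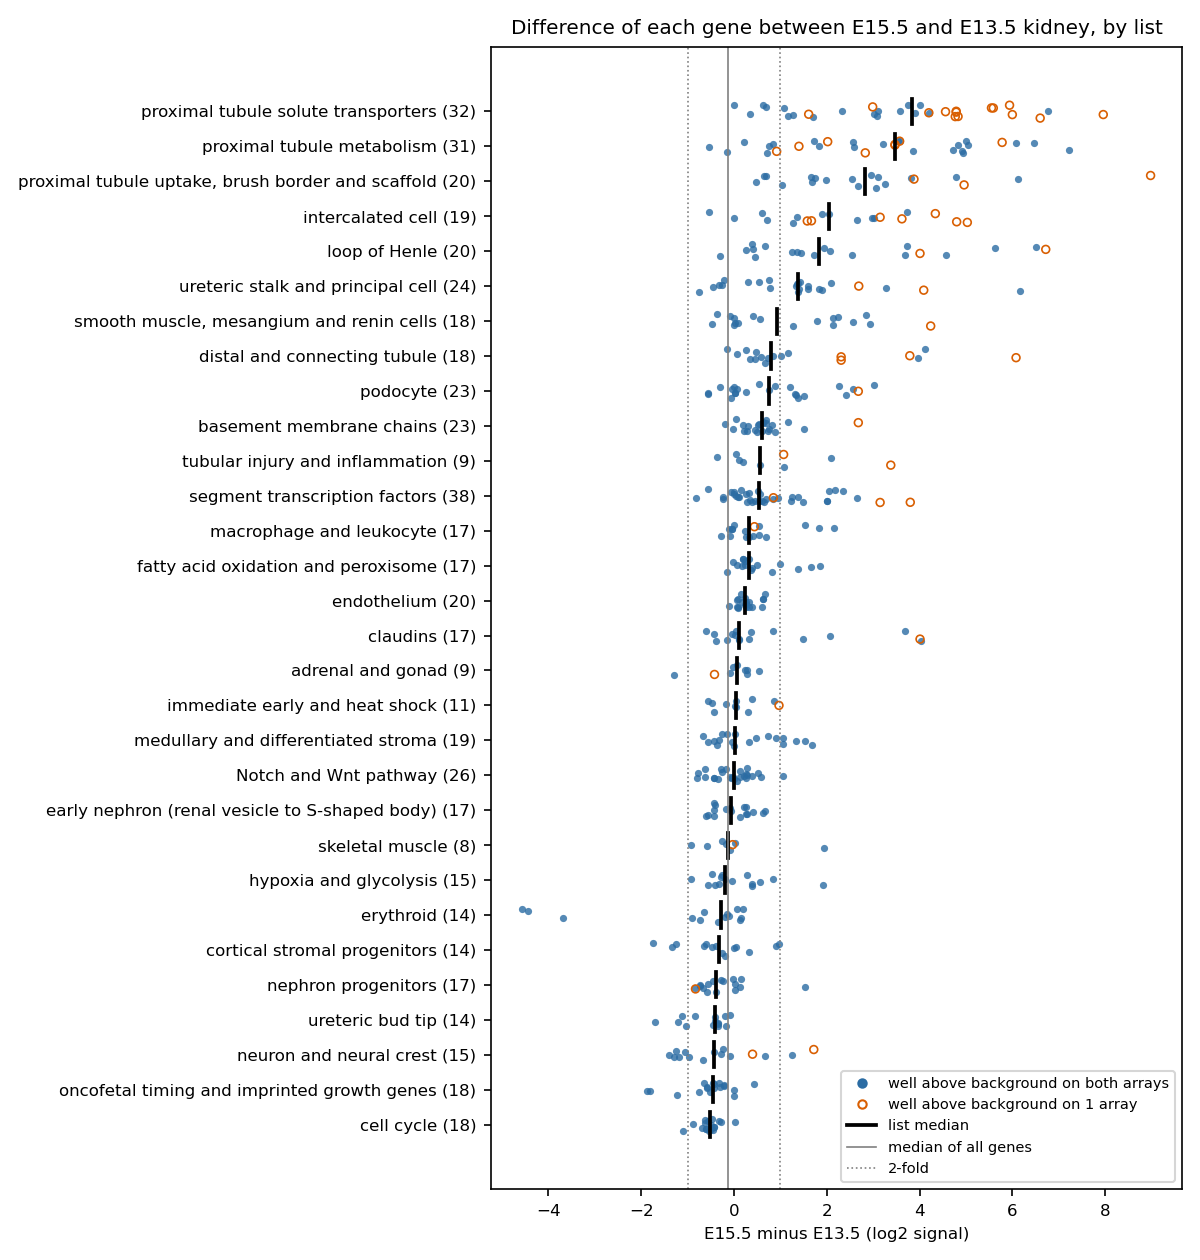
Difference between E15.5 and E13.5 kidney for each gene of 30 lists. Each point is 1 gene, placed by its E15.5 minus E13.5 difference (log2), filled where it was well above background on both arrays and open where it was so on 1; black bars are list medians, the grey line is the median of all genes and dotted lines mark 2-fold. The 3 proximal tubule lists lie furthest to the right, with medians of 3.83, 3.47 and 2.82, and most lists of progenitors and dividing cells lie left of 0.

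The solute carriers of the proximal tubule made up the group with the highest median. Of 32 carriers and channels in the list, 28 were at least 2-fold higher in E15.5 kidney and none was lower, against 8.5% and 1.76% of all genes. Their median difference was 3.83 (14.2-fold), or 3.09 with dim genes at their bounds, 2.67 over members well above background on both arrays and 1.48 with normexp. All 32 were well above background at E15.5 and 18 at E13.5, so that 14 were seen on the later array alone, against 7.32% of all genes.

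Slc34a1, the main phosphate carrier of the brush border, stood at 2.94 in E15.5 kidney against -3.83 in E13.5 kidney, a 109-fold higher signal. Its other probe gave a difference of 5.20 in place of 6.77. The probe shown lies at chr13:55515201-55515259 (mm9, as the array file places it). Slc5a2, the SGLT2 glucose carrier, was at 0.20 in E15.5 kidney against -3.80 in E13.5 kidney, 16-fold higher. The phosphate and urate carrier Slc17a1 was at 1.03 against -6.93, at least 69.7-fold higher. Slc22a2, which takes up organic cations, was at 0.36 against -6.25, at least 43.8-fold higher. Both were not well above background at E13.5.

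Carriers of other substrates showed the same kind of difference. Slc3a1, a subunit of the cystine carrier, was at least 32.1-fold higher (-0.09 at E15.5 and -5.64 at E13.5). The sodium-proton exchanger Slc9a3, which recovers bicarbonate and sodium, was at least 27.1-fold higher (-0.33 and -5.92), with 1 of its 2 probes at a difference of 1.65. Slc5a12, a lactate carrier, was at least 16.3-fold higher on its brighter probe (-1.07 and -7.01). The vitamin C carrier Slc23a1 was well above background at E15.5 alone (-1.14 and -7.14). The 4 members within 2-fold, named after their values were seen, were Slco4c1 (-0.01), Slc7a7 (0.34), Slc37a4 (0.63) and Slc7a8 (0.68), of which Slc37a4 moves glucose 6-phosphate inside cells and Slc7a7 and Slc7a8 carry amino acids at the basal side.

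Genes of protein uptake and of the brush border were also higher. Of the 20 in this list, 17 were at least 2-fold higher and none was lower, with a median difference of 2.82 (7.07-fold), or 2.09 with normexp. Well above background at E15.5 alone were 3 of the 20, against 7.32% of all genes. Lrp2, or megalin, the endocytic receptor for filtered proteins, stood at 3.32 in E15.5 kidney against -0.50 in E13.5 kidney, 14.1-fold higher, and its other probe differed by 3.03. Its partner Cubn was at 1.86 against -2.93, 27.6-fold higher. Amn, which brings Cubn to the membrane, was at 2.34 against -0.90, 9.50-fold higher. All 3 genes of this uptake complex were thus well above background on both arrays and several-fold higher on the later.

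Both subunits of the brush border protease meprin stood out. Mep1b had the largest difference of all genes, at 2.69 in E15.5 kidney against -6.29 in E13.5 kidney, at least 220-fold higher. Mep1a was at 4.51 against -1.61, 69.4-fold higher, and was well above background on both arrays. The scaffold Pdzk1, which holds carriers at the brush border, was 8.58-fold higher (5.13 at E15.5 and 2.03 at E13.5). Cdhr5, a cadherin of microvilli, was at least 14.7-fold higher (-1.13 and -5.01), and Tmigd1, an adhesion protein, at least 12.5-fold higher (-1.45 and -6.41). Members within 2-fold, named after their values were seen, included the peptidase Mme (0.69) and the microvillar cadherin Cdhr2 (0.65).

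Metabolic enzymes of the proximal tubule followed. Of 32 in the list, 31 passed the filter (Hpd was not well above background on either array), 24 were at least 2-fold higher, 23 with dim genes at their bounds, and none was lower. The median difference was 3.47 (11.1-fold), or 2.59 with bounds, 2.87 with a curve over signal subtracted and 1.21 with normexp. Spp2, a secreted phosphoprotein, was 149-fold higher, the largest fold among genes well above background on both arrays, at 2.71 in E15.5 kidney against -4.51 in E13.5 kidney. Fbp1, a key enzyme of glucose synthesis, was at 3.16 against -2.91, 67.2-fold higher. Pck1, which starts the same pathway, was at 0.21 against -4.80, 32.2-fold higher. Both enzymes of glucose synthesis were well above background on both arrays.

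Enzymes that break down or conjugate other molecules differed by similar amounts. Cyp2d26, a cytochrome P450, was 88.1-fold higher in E15.5 kidney (3.08 at E15.5 and -3.38 at E13.5). Gsta2, a glutathione transferase, was 30.6-fold higher (2.35 and -2.59), and Hao2, a peroxisomal oxidase, 30.0-fold higher (1.03 and -3.88). Miox, which breaks down inositol, was 28.3-fold higher (1.16 and -3.66). Akr1c21, a steroid reductase, was at least 15.3-fold higher (-1.16 and -6.94). Enzymes of the list that differed by less than 2-fold included Gldc (-0.53), Bhmt (-0.14) and Khk (0.22), which act on glycine, betaine and fructose.

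Because these proximal tubule genes were higher together, and with them Hnf4a, whose protein binds promoters of such genes, the 250 bases before each gene's start were searched for letters like those bound by HNF4, as a description. Of the 84 genes in the 3 lists, 70 had a promoter in the RefSeq table (GRCm38.p6), and 27025 genes had one in all. On both strands, 5 spellings were searched, chosen with the lists' values known. CAAAGTCCA was in 1 of 70 promoters of the lists (1.43%) and in 122 of all (0.451%), its looser form CAAAGTNCA in 3 (4.29%) and 1.4%, and AGTCCA, which lies within the first, in 21 (30%) and 13.1%. TGGCAAAG was in 4 (5.71%) and 1.34%, and GGTCA repeated after a gap of 2 bases in 0 and 0.181%. As a comparison the TATA box letters TATAAA were in 15 (21.4%) and 14.3%. Among 1016 genes at least 2-fold higher with a promoter, AGTCCA was in 17.1%, CAAAGTNCA in 2.76% and TGGCAAAG in 1.67%. Of 12 promoters of the loop of Henle list, CAAAGTNCA and TGGCAAAG were each in 1 (8.33%) and AGTCCA in 0. A match is a description of letters and not a binding site, and the absence of a match says nothing of the factor. The promoter of the lists that holds CAAAGTCCA, that of Slc3a1 (chr17:85028097-85028346, + strand), is shown 5′ to 3′ with those letters in capitals, 39 to 31 bases before the start.
Slc3a1 promoter: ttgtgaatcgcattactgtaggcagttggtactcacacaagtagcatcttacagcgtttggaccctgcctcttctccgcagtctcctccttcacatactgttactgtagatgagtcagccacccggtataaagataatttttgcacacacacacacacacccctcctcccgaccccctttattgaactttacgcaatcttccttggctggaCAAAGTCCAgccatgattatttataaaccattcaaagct

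In the loop of Henle list, 14 of 20 genes were at least 2-fold higher in E15.5 kidney and none was lower, with a median difference of 1.83 (3.57-fold), or 0.93 with normexp. The salt-transport machinery of the thick ascending limb differed most. Slc12a1, the sodium-potassium-chloride carrier blocked by loop diuretics, was at -0.49 in E15.5 kidney against -7.21 in E13.5 kidney, at least 24.2-fold higher. The potassium channel Kcnj1, which returns potassium to the lumen, was at 2.16 against -4.35, 90.7-fold higher. Bsnd, a subunit of the chloride channels through which salt leaves these cells, was at 0.59 against -3.97, 23.5-fold higher. The carrier and both channel genes named here were thus higher on the later array.

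Tight-junction genes of this limb were higher too: Cldn16, which lets magnesium and calcium pass, at least 12.1-fold (-1.49 at E15.5 and -5.51 at E13.5), Cldn10 12.9-fold (1.07 and -2.62) and Cldn19 4.16-fold (-1.85 and -3.91). Umod, the most widely used marker of the limb and the source of uromodulin in urine, was 13.2-fold higher (0.22 and -3.51). Sostdc1, a secreted inhibitor of BMP and Wnt signals, was 5.82-fold higher (2.93 and 0.38). Of the 17 claudins in the list for tight junctions of the segments, 5 were higher (29.4%, against 8.5% of all genes) and none lower, with a median difference of 0.11. Over all 21 claudin genes that passed, the median was 0.04, and Cldn13, outside the list and named after its value was seen, was at least 2.11-fold lower (-5.45 and -4.37). Besides the 3 above these were Cldn2, the water- and sodium-permeable claudin of the proximal tubule, 16.5-fold higher (1.21 and -2.83), and Cldn1, 2.79-fold higher (-1.73 and -3.21). Cldn4, a collecting duct claudin, stood at -0.36 at E15.5 and 0.26 at E13.5, and the list median turned to -0.17 with each array scaled to its median.

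The distal and connecting tubule list was split. Of its 18 genes, 8 were at least 2-fold higher, 7 with dim genes at their bounds, and none was lower, with a median difference of 0.79 (1.73-fold). Fxyd2, a regulator of the sodium pump, was at 6.37 in E15.5 kidney against 2.25 in E13.5 kidney, 17.4-fold higher. The calcium-binding S100g was at 3.58 against -0.38, 15.6-fold higher, and the protease Klk1 at -1.25 against -7.33, at least 14.4-fold higher. Slc12a3, the thiazide-sensitive salt carrier that defines the distal convoluted tubule, was close to background at E15.5 (-3.46) and below it at E13.5 (-7.25), at least 3.1-fold higher. The calcium channel Trpv5 was also well above background at E15.5 alone (-4.64 and -6.95), at least 1.37-fold higher. Calb1, which marks the connecting tubule and also the ureteric bud, was at 1.22 and 0.89, a difference of 0.34.

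In the list of ureteric stalk and principal cell genes, 15 of 24 were at least 2-fold higher and none was lower. The median difference was 1.39 (2.61-fold), or 0.67 with normexp. These 15 include the urothelial genes Upk3a, Upk1b and Upk2, so the count is not of collecting duct cells alone. The water channel Aqp2 stood at 0.46 in E15.5 kidney against -1.63 in E13.5 kidney, 4.26-fold higher. Aqp3, through which water leaves principal cells, was at 2.58 against -0.68, 9.62-fold higher. The vasopressin receptor Avpr2 was 3.70-fold higher (-0.58 and -2.47) and the sodium channel subunit Scnn1a 3.57-fold higher (0.52 and -1.32). Receptor, water channels and sodium channel were thus higher together. Wnt7b, a stalk signal needed for the medulla, was at -1.22 and -2.0, a difference of 0.78.

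The same list holds uroplakins, the proteins that plate the luminal surface of the urothelium of ureter, renal pelvis and bladder. Upk3a was at 1.54 in E15.5 kidney against -4.63 in E13.5 kidney, 72.2-fold higher. Upk1b was at least 4.43-fold higher (-2.95 and -7.04) and Upk2 at least 3.28-fold higher (-3.38 and -6.07). The label states that the ureter was removed, so that the renal pelvis and remaining ureter cannot be told apart as their source.

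Of 19 intercalated cell genes, which serve acid and base transport, 15 were at least 2-fold higher, 14 with dim genes at their bounds, and none was lower, with a median difference of 2.04 (4.12-fold), or 1.89 with bounds, 2.65 with the mean of each gene's probes and 0.96 with normexp. The defining factor Foxi1 was at 1.46 in E15.5 kidney against -1.19 in E13.5 kidney, 6.28-fold higher. Subunits of the proton pump in this list were higher: Atp6v0a4 13.3-fold (1.19 and -2.54), Atp6v0d2 at least 12-fold (-1.51 and -5.13) and Atp6v1b1 at least 6.79-fold (-2.33 and -7.37). Slc26a4, or pendrin, the chloride-bicarbonate exchanger of type B cells, was at least 14.9-fold higher (-1.20 and -5.54), and Oxgr1, a receptor for oxoglutarate, at least 6.25-fold (-2.45 and -7.25). The 4 members within 2-fold, of which Kit, Slc4a9 and Car2 were named after their values were seen, were Slc4a1 (-0.53), Kit (-0.01), Slc4a9 (0.61) and Car2 (0.72). Slc4a1, the anion exchanger of type A cells, is also a major red cell protein and stood at 0.07 and 0.59.

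**Figure D3:**
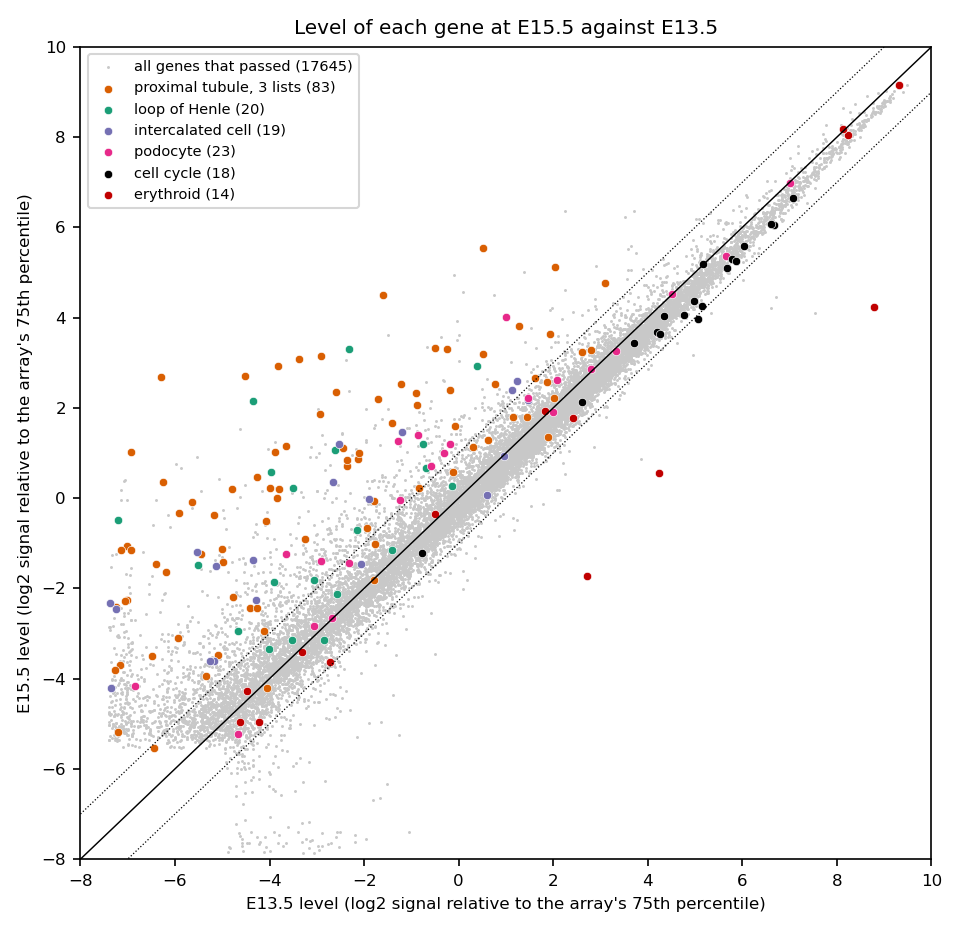
Level of each gene in E15.5 kidney (vertical axis) against E13.5 kidney (horizontal axis), both as log2 signal relative to the array's 75th percentile. Grey points are all 17645 genes, coloured points 6 groups of listed genes, the solid line equality and dotted lines 2-fold. Most proximal tubule, loop and intercalated cell genes lie above the upper dotted line, most cell cycle genes lie between the solid line and the lower dotted line, and 3 erythroid genes lie far below the lower dotted line.

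Of 38 transcription factors of the segments, 12 were at least 2-fold higher (31.6%, against 8.5% of all genes), 11 with dim genes at their bounds. None was lower, and the median difference was 0.55 (1.46-fold). Hnf4a, a nuclear receptor required for the proximal tubule, was at 4.61 in E15.5 kidney against 2.26 in E13.5 kidney, 5.12-fold higher. The bile acid receptor Nr1h4 was at -1.36 against -5.16, at least 13.3-fold higher.

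Factors of other segments were among the higher ones. Irx1, of the middle segments of the nephron, was 2.82-fold higher (3.59 at E15.5 and 2.10 at E13.5). The orphan receptor Esrrg was 4-fold higher (1.15 and -0.85), and the homeobox gene Emx1 also 4-fold (-0.22 and -2.22). Dmrt2 and Hmx2, factors of intercalated cells, were 4.12-fold higher (-2.25 and -4.29) and at least 1.86-fold higher (-4.20 and -7.35).

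Of 23 podocyte genes, 10 were at least 2-fold higher, 9 with dim genes at their bounds, and none was lower, with a median difference of 0.76 (1.70-fold). Slit diaphragm and foot process genes made up the higher ones named here. Nphs1, or nephrin, was at -1.24 in E15.5 kidney against -3.66 in E13.5 kidney, 5.34-fold higher. Clic5 of the foot process was 5.89-fold higher (1.27 and -1.29), the phosphatase Ptpro 4.81-fold (1.40 and -0.87) and the surface sialomucin Podxl 2.62-fold (1.21 and -0.18). Synpo, an actin regulator, was 2.48-fold higher (0.72 and -0.59), while its other probe differed by -0.39. The early podocyte factor Wt1, which nephron progenitors also express, differed by -0.30.

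Basement membrane chains had a median difference of 0.61 (1.52-fold) over 23 genes, of which 3 were at least 2-fold higher, 2 with bounds, and none was lower, a count near the 8.5% (6.38% with bounds) of all genes. Col4a4, of the mature collagen network of the glomerulus, was 2.84-fold higher (-1.40 at E15.5 and -2.91 at E13.5), with 0.87 on its other probe, and its partner Col4a3 at least 1.90-fold (-4.17 and -6.84). Lama2, a laminin chain, was 2.25-fold higher (1.31 and 0.14). Lamb2, the laminin chain of the mature filter, differed by 0.54 (1.44 and 0.89), Lama5 by 0.88 (3.63 and 2.75) and Col4a1, of the network that comes first, by 0.75 (4.93 and 4.18).

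Genes of the steps before segmentation stayed within 2-fold. None of the 17 early nephron genes was past 2-fold, and their median difference was -0.07, which turned to 0.05 with quantile normalization and 0.10 with a curve over signal subtracted. Wnt4, which drives the turn to epithelium, was at 4.06 in E15.5 kidney against 4.63 in E13.5 kidney, 1.48-fold lower. Lhx1, a factor of the vesicle, differed by -0.18 (2.34 and 2.53) and the Notch ligand Jag1 by 0.14 (2.79 and 2.65). Cdh6, of the early proximal precursor, had the largest positive difference at 0.67 (1.45 and 0.77), and Fgf8, needed for survival of the vesicle, the largest negative one at -0.60 (0.55 and 1.15).

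Nephron progenitor genes had a median difference of -0.39 over 17 genes, with 1 at least 2-fold higher (5.88%, against 8.5% of all genes) and none lower. Six2, which maintains the progenitors, stood at 4.98 in E15.5 kidney against 5.71 in E13.5 kidney, 1.66-fold lower, although another of its 3 probes differed by 0.92. Gdnf, their growth signal to the ureteric bud, was 1.67-fold lower (2.97 and 3.71), and Meox1 1.79-fold lower (1.59 and 2.43). Cited1, of the least committed cells, differed by 0.15 (5.06 and 4.91). Dapl1 was the member past 2-fold, 2.89-fold higher (-0.45 and -1.98).

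Each of 14 genes of the ureteric bud tip had a negative difference, 4 were at least 2-fold lower, against 1.76% of all genes, and the median was -0.41 (1.33-fold lower). The receptor Gfra3 was at -1.61 in E15.5 kidney against 0.10 in E13.5 kidney, 3.27-fold lower. Adamts18 was 2.32-fold lower (-1.84 and -0.63), with -0.26 on its other probe, and the factor Sox8 2.06-fold (-2.88 and -1.84). Ret, the receptor that drives branching, was at 0.71 and 0.80, a difference of -0.09, and its target Etv4 was 1.79-fold lower (3.72 and 4.56). The tip signal Wnt11 was 1.38-fold lower (1.01 and 1.47).

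Most stromal genes were within 2-fold. Of 14 cortical progenitor genes 3 were at least 2-fold lower, against 1.76% of all genes, and none higher, with a median of -0.31. They were Crabp1, which binds retinoic acid, 3.33-fold lower (1.13 at E15.5 and 2.86 at E13.5), the defining factor Foxd1, 2.51-fold lower (1.79 and 3.11), and Tbx18, 2.36-fold lower (-2.18 and -0.94). Of 19 genes of medullary and differentiated stroma 5 were at least 2-fold higher (26.3%, against 8.5% of all genes) and none lower. Their median was 0.03, which turned to -0.25 with each array scaled to its median. Penk, of medullary stroma, was 3.23-fold higher (5.44 and 3.75), the matrix proteins Ogn, Lum and Col14a1 2.91-fold, 2.08-fold and 2.07-fold, and the collagen cross-linking Lox 2.52-fold.

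Contractile and renin cells had 9 of 18 genes at least 2-fold higher and none lower, with a median of 0.92 (1.89-fold). Ren1, renin, was at 0.11 in E15.5 kidney against -2.83 in E13.5 kidney, 7.67-fold higher. Ace, which makes angiotensin II, was 4.4-fold higher (-1.11 and -3.24) and its receptor Agtr1a 4.38-fold (0.82 and -1.31). The smooth muscle actin Acta2 was 4.72-fold higher (4.22 and 1.98), calponin Cnn1 7.21-fold (0.29 and -2.56), Actg2 5.96-fold (-0.88 and -3.45), Tagln 3.43-fold (3.96 and 2.18), and the myosin Myh11 at least 5.27-fold (-2.70 and -6.94). Both the hormone system and the contractile genes were thus higher, and smooth muscle of arteries, pelvis and remaining ureter cannot be told apart.

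Endothelial genes did not pass 2-fold in either direction, and their 20 differences ran from -0.10 to 0.67 with a median of 0.24, which turned to -0.04 with each array scaled to its median. Cdh5, the cadherin of endothelial junctions, was at 2.54 in E15.5 kidney and 2.37 in E13.5 kidney, and Pecam1 at -0.33 and -0.41. Of 17 leukocyte genes that passed 3 were at least 2-fold higher (17.6%, against 8.5% of all genes), with a median of 0.32. They were S100a8 (4.44-fold) and S100a9 (3.55-fold), which neutrophils carry, and Lyve1 (2.88-fold), of some macrophages and lymphatic vessels. Adgre1, the F4/80 antigen of macrophages, differed by 0.32 (-2.28 and -2.60).

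Embryonic globins, made by the first red cells from the yolk sac, were the most strongly lower genes among those named and well above background on both arrays. Hbb-y stood at 4.23 in E15.5 kidney against 8.78 in E13.5 kidney, 23.6-fold lower, with its other probe at -4.93. Hbb-bh1 was at -1.73 against 2.71, 21.8-fold lower, and Hba-x at 0.55 against 4.23, 12.8-fold lower. Adult-type globins did not share this: Hba-a1 (8.04 and 8.23), Hba-a2 (9.15 and 9.32) and Hbb-bt (8.19 and 8.13), named after their values were seen, differed by -0.19, -0.16 and 0.06, and probes for such similar genes may share signal. Alas2, of haem synthesis in red cells, differed by 0.12 (1.94 and 1.82). Over 14 erythroid genes 3 were lower and none higher, with a median of -0.27.

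Markers of neighbouring tissue were mostly within 3-fold or dim. Of 15 neuron and neural crest genes 5 were at least 2-fold lower and 2 higher, 1 with bounds, with a median of -0.42. The lower ones were Chl1 (2.62-fold), Nefm (2.46-fold), Dbh (2.37-fold), Stmn2 (2.27-fold) and Nefl (2.08-fold), of axons and noradrenergic cells, and the neuronal filament gene Prph was at least 1.09-fold higher (-4.97 at E15.5 and -6.68 at E13.5). Of 11 skeletal muscle genes 8 passed, Acta1 was 3.83-fold higher (-0.43 and -2.37) and the defining factor Myog was near background (-4.99 and -4.96). Of 13 adrenal and gonad genes 9 passed; the steroidogenic factor Nr5a1 differed by 0.53 (-1.42 and -1.95), and the germ cell gene Ddx4 was 2.45-fold lower (-4.80 and -3.51). Their part in the differences above was not tested.

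Cell cycle genes, most of them bright, showed small differences. Of 18 cell cycle genes 17 had a negative difference, with a median of -0.52, and 1 was past 2-fold. That gene was Ccne1, of entry into DNA synthesis, 2.14-fold lower (3.97 at E15.5 and 5.07 at E13.5). Ccnb1 was 1.84-fold lower (4.26 and 5.14) and Pcna 1.53-fold (6.06 and 6.67), whereas Mki67 differed by 0.02 (5.19 and 5.17). The median of the brightest bin of all genes was -0.28, and with a curve over signal subtracted, the cell cycle median was -0.29.

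Genes of fetal timing and imprinted growth genes had a median of -0.45 over 18 genes. Of these, 3 were at least 2-fold lower, against 1.76% of all genes, and none was higher. Lin28b, which blocks maturation of let-7 microRNAs, was at -0.70 in E15.5 kidney against 1.17 in E13.5 kidney, 3.66-fold lower. Hmga2, a target of let-7, was at 3.17 against 4.96, 3.47-fold lower, and Dlk1, an imprinted Notch-like ligand, at 4.11 against 5.33, 2.33-fold lower. Igf2 was 1.35-fold lower (2.91 and 3.34). The binding proteins Igf2bp1 and Igf2bp3 were 1.51-fold and 1.5-fold lower.

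Pathway genes outside the segments were mostly within 2-fold. Of 26 Notch and Wnt genes 1 was past it, Notch1, 2.07-fold higher on 1 probe (-1.40 at E15.5 and -2.46 at E13.5) with 0.18 on the other, and the list median was -0.01, which turned to 0.15 with a curve over signal subtracted. The Wnt target Axin2 was at -0.23 and 0.40, with its probes at -0.63 and 0.39. Of 15 hypoxia and glycolysis genes Ndrg1 alone was past 2-fold, 3.77-fold higher (3.02 and 1.1), and Hk2, the first enzyme of glycolysis, was 1.90-fold lower (0.74 and 1.66). Of 17 fatty acid oxidation genes 4 were higher (23.5%, against 8.5% of all genes). Among them were the switch kinase Pdk4, 3.62-fold (-1.16 and -3.02), Ehhadh, 2.61-fold (-1.22 and -2.60), and Acadm, 2-fold (3.90 and 2.89). Immediate early and heat shock genes were all within 2-fold, with Fos at -3.84 and -3.87.

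Of 9 measured genes known from tubular injury 4 were at least 2-fold higher, 3 with bounds, against 8.5% (6.38% with bounds) of all genes. Spp1, osteopontin, which healthy tubules also make, was at least 8.27-fold higher (-2.05 at E15.5 and -5.42 at E13.5). Lgals3 was 4.29-fold higher (1.61 and -0.49) and Lcn2 2.10-fold (-1.14 and -2.21). Cxcl1 was below background at E13.5 and too dim for a bound, and Havcr1, or Kim1, was not well above background on either array.

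Several genes outside the lists were among the largest differences. Afp, the fetal serum protein alpha-fetoprotein, was at 3.07 in E15.5 kidney against -2.39 in E13.5 kidney, 44.1-fold higher, and the esterase Aadac at 1.09 against -4.03, 34.9-fold higher. Sult1d1, a sulfotransferase, was at least 64.7-fold higher (0.92 and -5.54), with 4.44 on its other probe, and the succinate receptor Sucnr1 at least 57.7-fold (0.76 and -5.97). Ttc36 was at least 54.2-fold higher (0.67 and -5.87), the organic anion carrier Slc22a19 at least 45.5-fold (0.41 and -7.05) and the defensin Defb1 at least 44.2-fold (0.37 and -7.07). Among lower genes, Foxf1, a factor of mesenchyme around the gut and ureter, was at -3.45 against -0.51, 7.65-fold lower, and Arg1, an arginine-degrading enzyme, at -4.98 against -1.90, 8.43-fold lower. Genes well above background at E13.5 alone with the largest bounds were Slc22a3, an organic cation carrier, at least 16.4-fold lower (-6.33 and -1.51), Il17b, at least 14.8-fold (-6.65 and -1.66), and Mmp8, a collagenase, at least 13.3-fold (-6.69 and -1.81). With normexp these differences were -1.29, -1.24 and -1.21. Each of these genes had its highest level of the 5 fresh kidney stages at E13.5. Slc22a3 alternated, at -5.51, -1.51, -6.33, -2.68 and -7.06 in order of age.

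**Figure D4:**
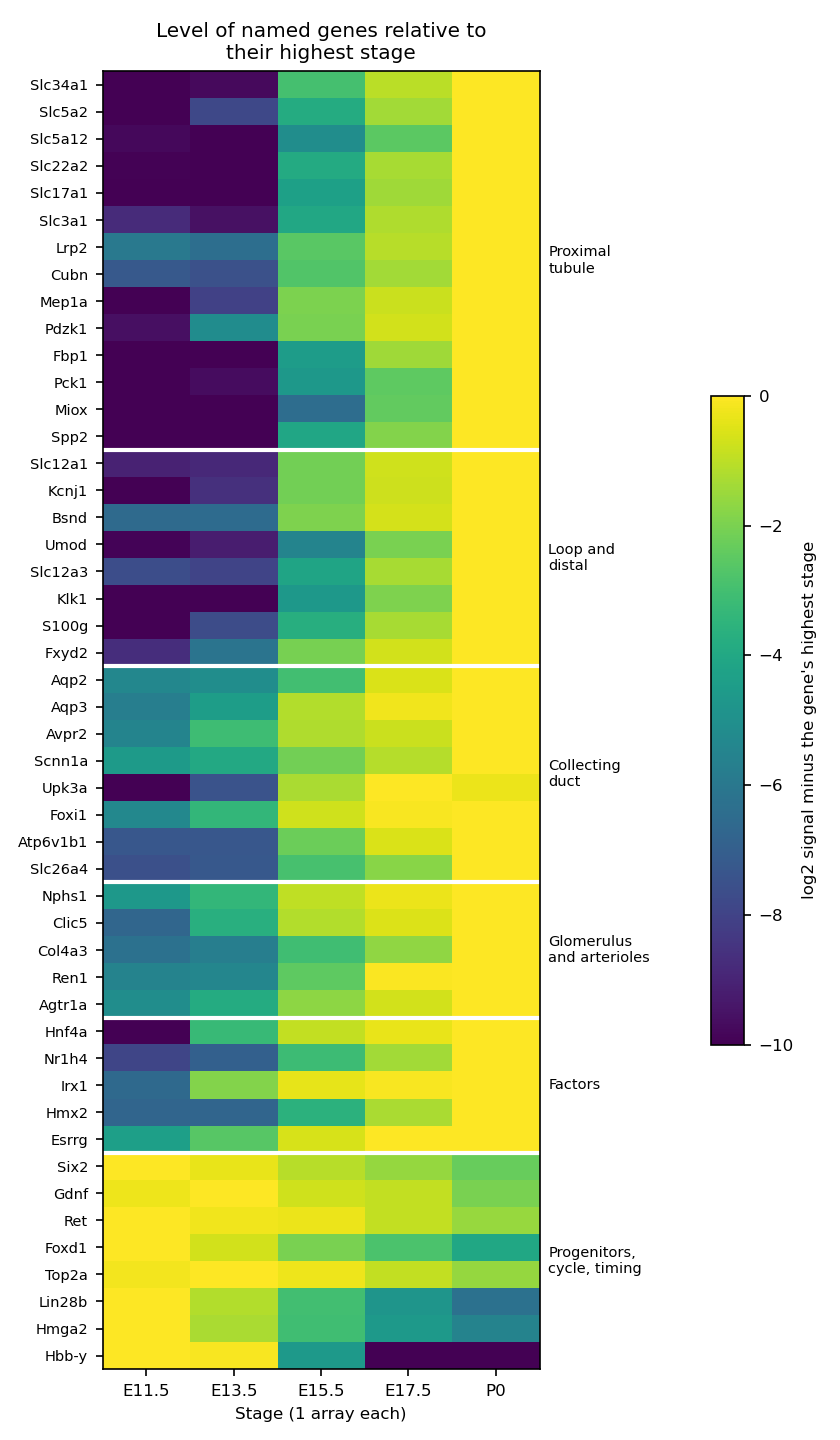
Level of named genes in fresh kidney at 5 stages (columns, 1 array each), each row coloured by log2 signal minus that gene's highest stage. Rows are grouped by segment. Values off the scale take the darkest colour. The change of colour between E13.5 and E15.5 is wide in most proximal tubule and loop rows, while Six2, Gdnf, Foxd1, Lin28b and Hbb-y run the other way.

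Set beside the other steps of the series, which share arrays with this one and so are not independent of it, the median differences of the proximal tubule carriers were 0.55 (E13.5 minus E11.5), 3.83 (E15.5 minus E13.5), 1.63 (E17.5 minus E15.5) and 1.17 (P0 minus E17.5). The uptake and brush border list had 1.46, 2.82, 1.22 and 0.89 at these steps, and the metabolic list 0.36, 3.47, 2.14 and 0.95. In these 2 lists 9 of 20 and 13 of 31 genes had their largest rise from E13.5 to E15.5, against 20.3% of all genes. The other members rose most at another step. Loop of Henle genes had 1.16, 1.83, 1.34 and 0.78, and intercalated cell genes 0.04, 2.04, 1.31 and 0.65. The medians of these 5 lists were highest at the step from E13.5 to E15.5 and stayed above 0 at both later steps. Members were chosen by signal on the E13.5 and E15.5 arrays, and dim values were not bounded here, which can widen this step. Of the carriers, metabolic and intercalated cell genes, 14, 8 and 7 were not well above background at E13.5. For these genes the step from E11.5 to E13.5 ends at a dim value. With bounds the medians of these lists from E13.5 to E15.5 were 3.09, 2.59 and 1.89. Podocyte genes had 0.21, 0.76, 0.34 and -0.06. Early nephron genes had their highest median a step earlier, with 1.27, -0.07, -0.29 and -0.11, and fatty acid oxidation genes at a later one, with 0.17, 0.32, 0.28 and 0.91. Over all genes the percentages at least 2-fold higher were 6.27%, 8.5%, 5.57% and 4.38%, and those lower 6.3%, 1.76%, 2.28% and 3.31%.

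**Figure D5:**
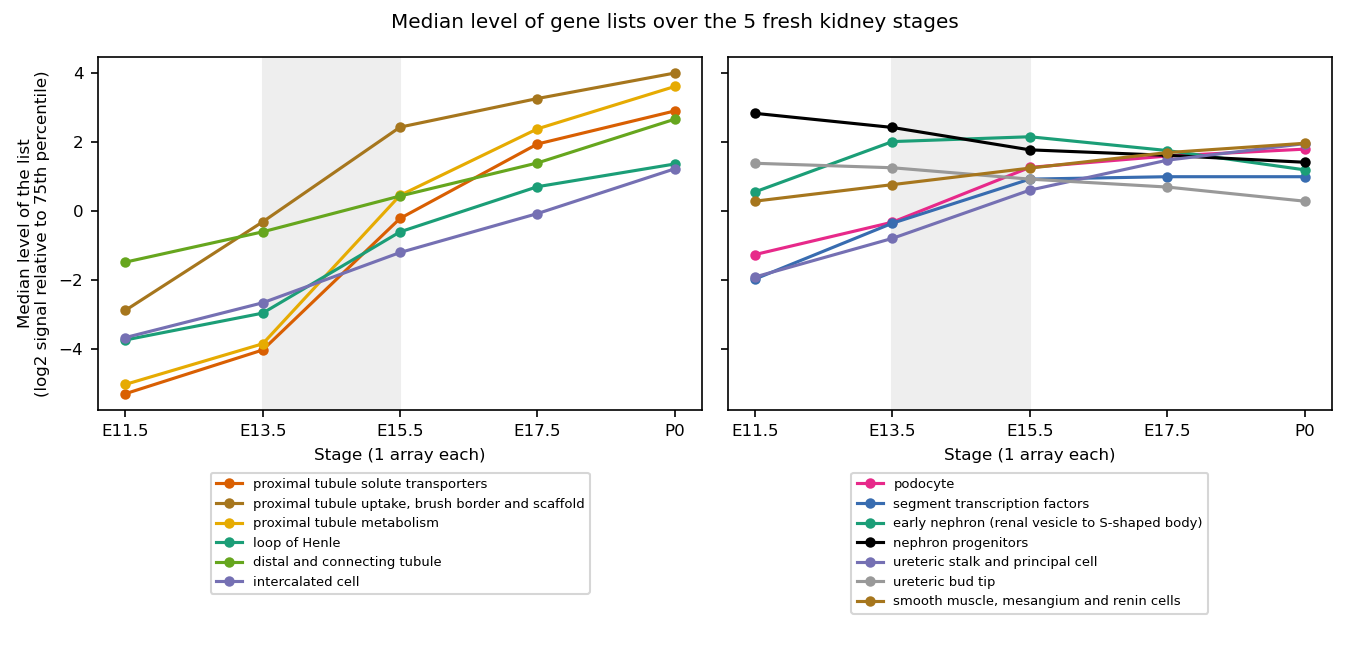
Median level of gene lists (log2 signal relative to the array's 75th percentile) at 5 stages of fresh kidney with 1 array each, tubule lists on the left and other lists on the right, and the step from E13.5 to E15.5 shaded. The carrier list is at -0.21 in E15.5 kidney and -4.03 in E13.5 kidney, the early nephron list at 2.16 and 2.02, and the nephron progenitor list at 1.78 and 2.43.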

How the data were processed

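Total RNA of each specimen was hybridised to 1 array. Per the file headers, the authors' Feature Extraction software (version 11.5.1.1 there, 10.7.3.1 per the submitters' processing notes) gave each of 62976 spots an intensity that was background-subtracted and corrected. The authors also deposited a table of log2 values, which equals the log2 intensity minus a constant per array, and it was used as an alternative. Here control spots and 127 (E15.5) and 125 (E13.5) outlier spots were left out, spots of a probe averaged as log2, and each array's 75th percentile subtracted. Gene names for the 55681 probes came first from RefSeq accessions (28026 probes), then from current symbols (3418), synonyms (295) or the array file alone (1061), and 22881 stayed unnamed. For each of 23564 symbols, 7167 with several probes, the probe with the highest mean over 12 arrays was kept. Genes were kept if well above background on at least 1 of the 2 arrays. The 31 gene lists, 556 genes in all, were chosen with earlier results of these data known, as were the members compared; 3 genes had no named probe and 14 were below background on both arrays. Named genes were the 10 largest differences and 10 largest bounds each way, without predicted genes, and per list its core members and up to 6 more with the largest absolute difference. Alternatives covered background correction (normexp, limma 3.58.1 under R 4.3.3), scaling, quantile normalization, probe choice, filters and a lowess curve on signal (Python 3.11.15, statsmodels 0.14.6, span 0.3, chosen after seeing the drift). The code was tested on simulated data. No p-value was computed. Some genes, and promoter letters of a factor also searched, are not reported here.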

Additional observations from a re-analysis of the deposited data

How the results depend on the processing

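Of 279 list medians under 9 alternatives 198 moved by less than the spread between replicate organoid arrays and 81 by more, and of 2272 values of named genes 2127, 144 and 1 (reversed). Part of the 2127 was fixed in advance. The authors' table and median scaling shift all genes of an array by 1 constant, and the filters change only which genes are kept. Normexp moved 110 of 258 named genes and reversed 1, and the mean of a gene's probes moved 25. The cause was not tested. With normexp background correction, which compresses dim signals, 415 genes were higher and 59 lower, and the medians were 0.50 (podocyte), 1.48 (proximal carriers), 2.09 (uptake), 1.21 (metabolism), 0.93 (loop), 0.33 (distal), 0.67 (stalk and principal) and 0.96 (intercalated), while Prph turned to -0.01. With each array scaled to its median 719 genes were lower, and podocyte, loop, distal and intercalated medians were 0.48, 1.55, 0.51 and 1.76. With quantile normalization the loop and intercalated medians were 1.62 and 1.79. With the mean of a gene's probes podocyte, loop, distal and intercalated medians were 0.40, 1.61, 0.93 and 2.65. With genes well above background on both arrays 800 were higher and 194 lower, and proximal carrier, loop, distal and intercalated medians were 2.67, 1.58, 0.63 and 1.62. With no filter 626 were lower. With a curve over signal subtracted, added after seeing the drift, the medians were 3.96 (proximal carriers), 2.97 (uptake), 2.87 (metabolism), 1.8 (loop), 0.94 (distal), 1.48 (stalk and principal), 1.97 (intercalated), 0.90 (podocyte), -0.25 (bud tip), -0.21 (nephron progenitors), -0.16 (cortical stroma), 0.26 (medullary stroma) and 1.09 (smooth muscle and renin). Of 286 genes past 2-fold with several probes 29 had a probe of opposite sign. Dim signals at E13.5 limit folds to bounds. No paired analysis was possible because each stage has 1 array.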

Other observations

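Gene families grouped by symbol, chosen after seeing the data, are set beside the 8.5% higher and 1.76% lower among all genes. Of 326 solute carrier (Slc) genes that passed, 73 (22.4%) were at least 2-fold higher in E15.5 kidney and 2 lower. Of 60 cytochrome P450 (Cyp) genes 21 (35%) were higher and 1 lower, and of 11 glucuronosyltransferases (Ugt), which conjugate drugs and hormones, 9 were higher and none lower, with a median difference of 2.24. Of 23 V-ATPase subunits 5 were higher. None of 78 cytosolic ribosomal protein genes was past 2-fold, with a median of -0.25, and of 373 zinc finger (Zfp) genes 4 were higher and 3 lower.

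Of 212 olfactory receptor genes that passed, 130 were in the dimmest of the 8 bins of signal. In the family 36 (17%) were higher and 13 (6.13%) lower, against 8.5% and 1.76% of all genes. Of all genes in that bin, 29.6% were higher and 6.26% lower. The family's shares also cover its members in brighter bins, so the 2 sets are not matched for signal.

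Some genes alternated between arrays of neighbouring stages. Over the 5 fresh kidney stages in order of age, Zfp979 stood at 1.27, -5.07, 0.43, -5.94 and 1.23. The histone gene H4c4 stood at 4.18, 7.54, 4.10, 8.03 and 3.06 at these stages, and H4f16 at 1.04, 3.86, 0.87, 4.58 and -0.15. Ptx4, 9.97-fold lower in E15.5 kidney (-4.97 at E15.5 and -1.65 at E13.5), had its highest level of the 5 stages at E13.5. Its difference was -1.08 with normexp. Xist was at 0.01, -2.72, -0.70, -7.54 and -5.92, and Ddx3y at 0.71, 0.85, -0.84, 1.21 and 1.18.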
